A study of Tetranychus urticae with 4 samples.

Results

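Among the genes of the two-spotted spider mite Tetranychus urticae, 35 of 18020 identifiers had at least 10 reads in the dissected front body of adult females and none in intact females. They were chosen from the read counts themselves: at least 10 reads in the proterosoma library and 0 reads in every whole-body library. Because those counts chose the genes, the difference between front body and whole body is given here as a description, with no test. The proterosoma library was made from the dissected proterosoma of 250 adult females, and each of the 3 whole-body libraries from 100 intact adult females, all of the London strain. Both kinds of sample were pools of animals, and there was only 1 proterosoma library. Separate cultures are not mentioned for the whole-body pools, and so the p-values below rest on a spread between pools that may be technical.

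The proterosoma is the front division of the mite body. It carries the mouthparts with their piercing stylets, the eyes and the front pairs of legs, and it holds the salivary glands and most of the fused central nervous system. Spider mites inject saliva into plant cells while they feed, and the study set front against whole body in a search for transcripts concentrated in those glands. An intact body contains its own front body, together with the gut, the ovary and the eggs, which add their own RNA to the sample. In such bulk samples, fewer cells of a type and less RNA per cell cannot be told apart. The identifiers are not paired with gene names or products in the deposited files, and 0 of them were found in the RefSeq gene table at hand. No role is therefore given to any of these genes, and neither the tissue labels nor the salivary origin of a read could be checked against marker genes.

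The libraries held 19667380 counted reads for the proterosoma and 23647775, 12356237 and 11630954 for whole-body replicates 1, 2 and 3. A gene without a read could still have been present up to the level that 3 reads would give. This limit was 0.127, 0.243 and 0.258 CPM (reads scaled to a common library size) in whole-body replicates 1, 2 and 3. With the 3 whole-body libraries pooled to 47634966 reads it was 0.0630 CPM. The pooled whole-body depth was 2.42 times the proterosoma depth, so 10 proterosoma reads would correspond to 24.2 pooled whole-body reads at an equal level. Limits and intervals rest on read counts, without any spread between libraries, and cover counting error alone. Molecular identifiers were not used, so that error may itself be understated.

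Most of the 35 genes were rare in the front body too. Their proterosoma reads numbered from 10 to 441, with a median of 14, which is 0.508 to 22.4 CPM with a median of 0.712 CPM. Between 10 and 14 reads were found for 19 genes, 8 of them with exactly 10. A further 8 genes had 15 to 29 reads, 7 had 30 to 99, and 1 had more. Together the 35 genes took 1284 reads, or 0.00653% of the proterosoma library, and the 5 most abundant held 61.0% of those reads.

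**Figure D1:**
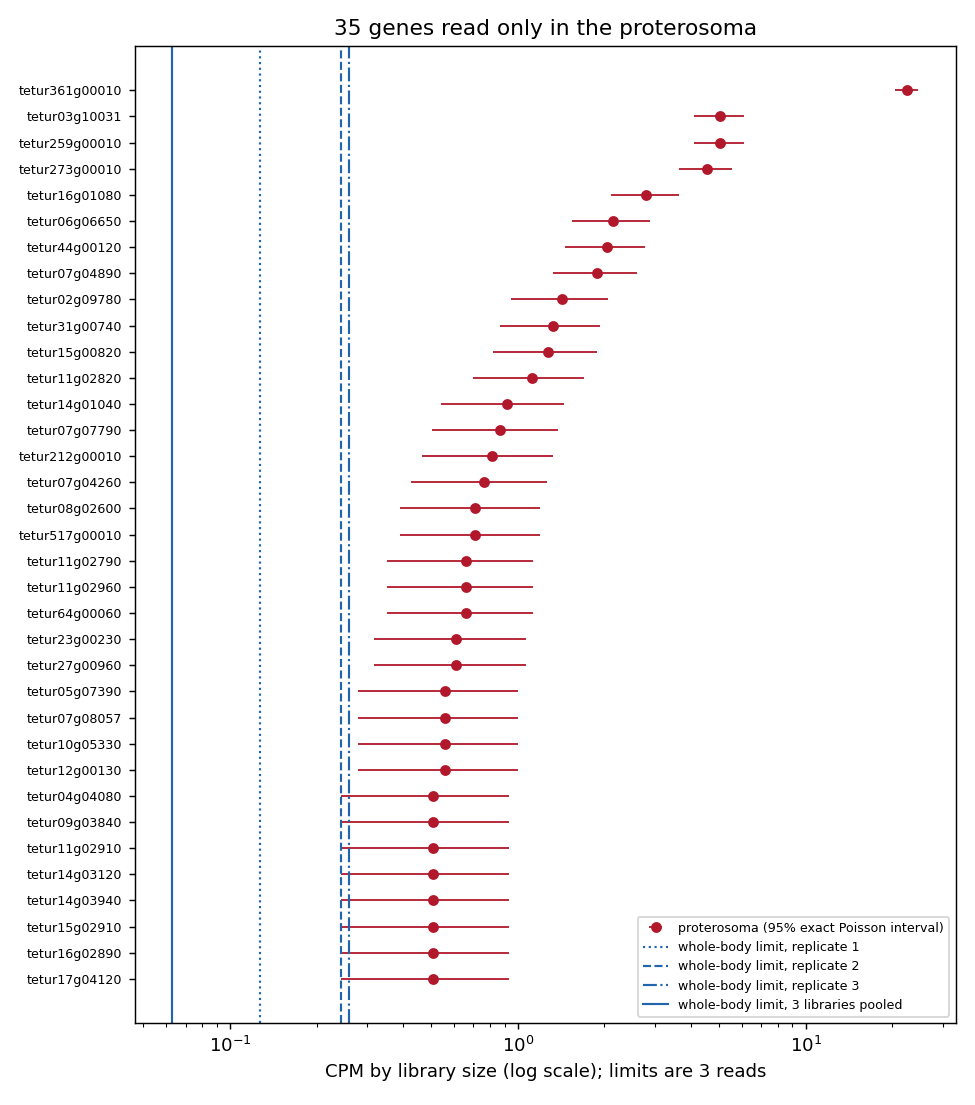
Proterosoma level of each of the 35 genes in CPM on a log scale (red points, with 95% exact Poisson intervals), beside the whole-body detection limits of 3 reads (blue lines, for each replicate and for the 3 libraries pooled). Every point lies right of all 4 limits, and for the 8 genes with 10 reads the lower end of the interval, 0.244 CPM, is under the limit of whole-body replicate 3, 0.258 CPM.

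The gene tetur361g00010 stood apart from the rest of the group, with 441 proterosoma reads against 0, 0 and 0 reads in the 3 whole-body libraries. Its proterosoma level was 22.4 CPM with a 95% exact Poisson interval of 20.4 to 24.6 CPM. At an equal level the pooled whole-body libraries would have held 1068 reads of it. It was at least 177-fold, 92.4-fold and 86.9-fold higher in the proterosoma than the 3-read limits of whole-body replicates 1, 2 and 3. Against 3 reads over the pooled whole-body libraries it was at least 356-fold higher. It supplied 34.3% of all reads of the 35 genes.

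A further 4 genes of the group had at least 55 reads. The gene tetur03g10031 had 99 reads in the proterosoma, against 0 in each whole-body library. The gene tetur259g00010 also had 99 reads in the proterosoma, against 0 in each whole-body library. Both were at 5.03 CPM and so at least 79.9-fold higher than the pooled whole-body limit. The gene tetur273g00010 followed with 89 proterosoma reads, or 4.53 CPM, against 0 in each whole-body library, at least 71.9-fold above the pooled limit. The gene tetur16g01080 had 55 proterosoma reads, or 2.80 CPM, against 0 in each whole-body library, at least 44.4-fold above it. Of these 5 most abundant genes, 3 were the sole identifier of their scaffold. No genome was used here, so it was not checked whether such scaffolds are mite sequence.

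For the group as a whole the bounds were far lower. Against the pooled whole-body limit the 35 genes were at least 8.07-fold to 356-fold higher in the proterosoma, with a median bound of 11.3-fold. These bounds take the proterosoma count as read; at the lower end of its 95% Poisson interval they were 3.87-fold for a gene with 10 reads, 6.18-fold at the median and 324-fold for tetur361g00010. A bound of 64-fold or more was reached by 4 genes. Library by library the limits were looser: the median bound was 5.61-fold against whole-body replicate 1, 2.93-fold against replicate 2 and 2.76-fold against replicate 3. For a gene with 10 reads, such as tetur04g04080, these bounds were 4.01-fold, 2.09-fold and 1.97-fold. A bound of at least 2-fold against each whole-body library on its own was reached by 27 of the 35 genes.

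The group had no sharp edge on either threshold. Genes with at least 10 proterosoma reads numbered 35 at 0 whole-body reads (3 libraries summed), 41 at 1 read, 50 at 2 reads, 38 at 3 reads and 49 at 4 reads. Between 26 and 51 such genes were found at each total from 5 to 20 whole-body reads. The 35 genes were therefore the end of a broad distribution and not a separate peak at 0. On the other threshold, genes without whole-body reads numbered 20 at 7 proterosoma reads, 9 at 8 reads and 8 at 9 reads, then 8 at 10 reads, 4 at 11 reads and 2 at 12 reads. In all, 389 identifiers had 1 to 9 proterosoma reads and no whole-body read.

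**Figure D2:**
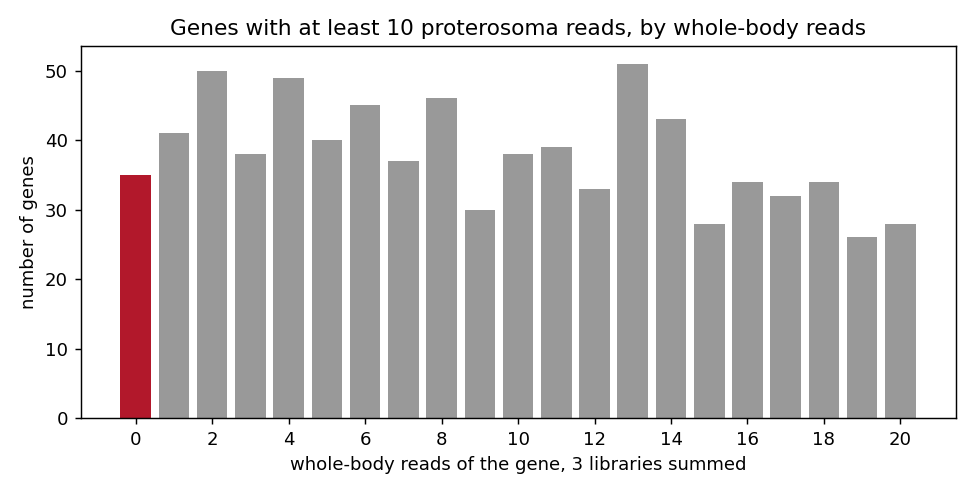
Number of genes with at least 10 proterosoma reads (y axis) by their whole-body reads summed over the 3 libraries (x axis, 0 to 20). The red bar at 0 holds the 35 genes described here, and the grey bars from 1 to 20 reads hold 26 to 51 genes each.

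The share of genes without a whole-body read was highest where proterosoma reads were fewest. Of the 554 genes with 10 to 14 proterosoma reads, 19 had no whole-body read (3.43%, 95% Wilson interval 2.21 to 5.29%). It was 0.812% of the 985 genes with 15 to 29 reads and 0.363% of the 1930 genes with 30 to 99 reads. It was 0.0115% of the 8698 genes with 100 or more reads, which is tetur361g00010 alone. The median gene with 10 to 14 proterosoma reads had 51 whole-body reads in all, so rare front-body transcripts were as a rule read in intact females.

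Just outside the rule stood genes with a single whole-body read. The gene tetur22g02810 had 72 reads in the proterosoma, against 1, 0 and 0 reads in whole-body replicates 1, 2 and 3. The gene tetur18g01270 had 55 reads in the proterosoma, against 1, 0 and 0 in the whole-body replicates. The gene tetur297g00010 had 39 reads in the proterosoma, against 0, 1 and 0 in the whole-body replicates. In proterosoma reads these 3 genes lay inside the range of the 35.

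The size of the group also depended on which whole-body library was asked. Without whole-body replicate 1, the deepest, 86 genes met the rule, against 49 without replicate 2 and 46 without replicate 3. The median fold bound of the genes found without replicate 1 was 6.30, against 3 reads over the other two libraries. Replicate 1 alone thus kept out 51 genes, replicate 2 alone 14 and replicate 3 alone 11. The 51 genes kept out by replicate 1 had at most 7 reads in it. Among those kept out by replicate 2 was tetur04g01680, singled out after its values were seen, with 573 proterosoma reads against 0, 40 and 0 reads in whole-body replicates 1, 2 and 3. It had more proterosoma reads than any of the 35 genes, and only 1 of the 3 whole-body pools showed it.

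The same rule found far fewer genes when a whole-body library took the place of the proterosoma. Set against the other whole-body libraries, at least 10 reads in 1 library and 0 in the other two were found for 1 gene in replicate 1, 1 gene in replicate 2 and 0 genes in replicate 3. These were tetur04g01680 in replicate 2, and in replicate 1 tetur06g03030, with 0 proterosoma reads against 11, 0 and 0 whole-body reads. Depth differed between these comparisons, and replicates 2 and 3 were each shallower than the proterosoma library.

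By their identifiers, the 35 genes were spread over 25 of 428 scaffolds. An identifier carries a scaffold number and a serial number along the scaffold; the order was not checked against an annotation, and no genome coordinates were used. The 37 scaffolds with at least 100 identifiers held 28 of the 35 genes (80.0%), and 93.1% of all identifiers. Scaffold 7 held 4 of them among 766 identifiers, scaffold 11 held 4 among 605, and scaffold 14 held 3 among 394. Scaffold 1, which has the most identifiers (1585), held 0. No 2 of the 35 genes were next to each other.

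Scaffolds with few identifiers held a larger part of the group than of the table. Scaffolds with at most 5 identifiers held 6 of the 35 genes (17.1%), and 3.40% of all identifiers. Scaffolds with a sole identifier held 4 (11.4%), and 1.12% of all identifiers. These 4 were tetur361g00010, tetur259g00010, tetur273g00010 and, with 14 proterosoma reads, tetur517g00010. Among identifiers with at least 10 proterosoma reads, those without a whole-body read were 6 of 236 on scaffolds with at most 5 identifiers (2.54%) and 28 of 11669 on scaffolds with at least 100 (0.240%). No test was made of this difference.

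Sole-identifier scaffolds were not in general front-body only. Of their 201 identifiers, 65 (32.3%) had no read in any of the 4 libraries and 120 had at least 1 whole-body read. The remaining 16 were read in the proterosoma library only, 4 of them with at least 10 reads. Of all 18020 identifiers, 389 were read there only with 1 to 9 reads, and 35 with at least 10. In the test described below, 81 of the 201 were tested, 40 were at least 2-fold higher in the proterosoma and 19 at least 2-fold lower. Of all genes tested, 31.6% were higher and 30% lower. How reads with several matches were counted is not stated in the sources at hand. Serial numbers that are not multiples of 10 occurred in 2 of the 35 genes (5.71%) and in 4.92% of all identifiers, shares that lie close together.

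The neighbours of the 35 genes were then classed by a test over all genes, and the 35 genes themselves are not counted as neighbours. Among 13278 genes tested (edgeR quasi-likelihood test, Benjamini-Hochberg adjusted p under 0.05), 4192 were at least 2-fold higher in the proterosoma, which is 31.6% of the genes tested and 23.3% of all identifiers. At least 2-fold lower were 3981, or 30% of the genes tested. With library size alone in place of TMM scaling (edgeR's trimmed mean of M values), the log2 folds moved by a median of -0.57. The genes at least 2-fold higher were then 3262 and those lower 5469, so that the higher ones were 37.4% of such calls with library size alone, against 51.3% with TMM.

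Of the 35 genes, 29 had an identifier on each side, 2 had 1 neighbour and 4 had none. The neighbours were 59 identifiers. Among them 16 were at least 2-fold higher in the proterosoma (27.1%, Wilson interval 17.4 to 39.6%), a share near the 23.3% of all identifiers. No read in any of the 4 libraries was found for 9 neighbours (15.3%, interval 8.24 to 26.5%), also near the 11.9% of all identifiers. At least 1 such front-enriched neighbour was present for 13 of the 35 genes, and at least 1 silent neighbour for 8. A pair of front-enriched neighbours flanked 3 genes, and a pair of silent ones flanked 1. No share of all identifiers with such neighbours is given beside these counts per gene, so they show no excess.

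Neighbours depleted from the front body were scarce. A level at least 2-fold lower there was found for 2 of the 59 neighbours (3.39%, Wilson interval 0.935 to 11.5%), against 22.1% of the identifiers outside the group. Fewer of the neighbours had enough reads to be tested, 29 of 59 (49.2%) against 73.7% of identifiers outside the group. Of these 29, 16 were at least 2-fold higher (55.2%, where 31.6% of the genes tested were) and 2 at least 2-fold lower (6.90%, where 30% were). Their median log2 fold was 1.69, against -0.03 for all tested genes outside the group. Genes with few whole-body reads enter the test only through their proterosoma reads, which favours higher calls. Among the 19 neighbours with at least 50 whole-body reads, 8 were higher (42.1%, interval 23.1 to 63.7%) and 1 was lower (5.26%, interval 0.935 to 24.6%). Among all 11485 such identifiers outside the group, 26.1% were higher and 32.9% lower.

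The 2 depleted neighbours flanked tetur14g01040 and tetur07g07790, which had 18 and 17 proterosoma reads. The share of depleted identifiers was 10 of 58 (17.2%) at the second place from a gene of the group, 10 of 56 (17.9%) at the third, 8 of 54 (14.8%) at the fourth and 11 of 52 (21.2%) at the fifth. The interval at each place from the second to the fifth included the 22.1% found outside the group, and that at the first place did not. These intervals are descriptive, and the share of depleted neighbours was not tested. Only front-enriched and silent neighbours had been set as questions beforehand. With library size alone, 5 of the 59 neighbours were depleted (8.47%), against 30.3% of all identifiers. Next to the 41 genes with 1 whole-body read, just outside the rule, 13 of 78 identifiers were depleted (16.7%).

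Neighbours read only in the proterosoma, with 1 to 9 reads, numbered 6 of 59 (10.2%, Wilson interval 4.74 to 20.5%), against 2.16% of the identifiers outside the group. At most 3 whole-body reads in all were found for 31 of the 59 neighbours (52.5%), against 21.3% of the identifiers outside the group. Outside a stretch of scaffold 11 described next, 4 of 52 neighbours (7.69%) were read only in the proterosoma. No test was made of any of these shares.

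**Figure D3:**
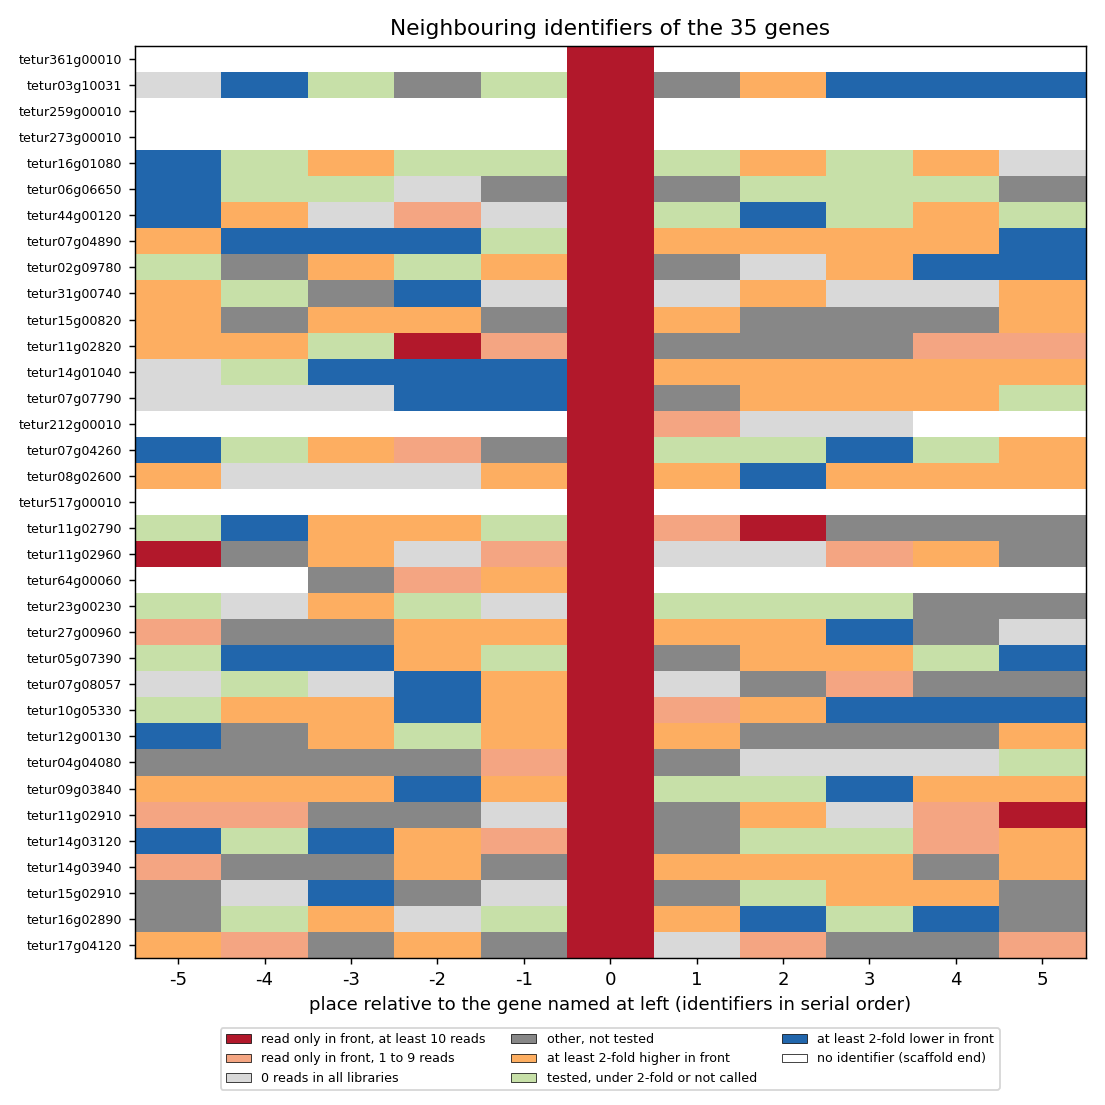
Class of the 5 identifiers on each side (columns) of each of the 35 genes (rows, in order of proterosoma reads). White cells lie beyond the end of a scaffold, and dark red cells away from the centre occur only in rows of scaffold 11, where 4 of the genes stand close together.

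The densest stretch lay on scaffold 11, where 4 of the 35 genes stood within 22 consecutive identifiers. It ran from tetur11g02790 to tetur11g03010. Its ends were set by a limit of at most 3 whole-body reads per identifier. Its low whole-body counts follow from that limit and are not a result. Together the 22 identifiers had 133 reads in the proterosoma library, against 14 reads in the 3 whole-body libraries summed. The 4 genes of the group supplied 13, 22, 10 and 13 of these proterosoma reads and, by rule, none of the whole-body reads. The totals are therefore a description, and their difference was not tested. Reads were found in the proterosoma for 16 of the 22, and 4 had no read in any library. The stretch and the next ones were singled out after their values were seen.

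The 4 genes of this stretch were tetur11g02790 with 13 proterosoma reads, tetur11g02820 with 22, tetur11g02910 with 10 and tetur11g02960 with 13, against 0 in each whole-body library. Close to them, tetur11g02930 had 17 proterosoma reads against 0, 0 and 1 in the whole-body replicates. The last but one, tetur11g03000, had 23 proterosoma reads against 1, 0 and 1 in the whole-body replicates. A further 5 identifiers of the stretch had 3 to 7 reads in the proterosoma and none in whole bodies. The other identifiers of the stretch either had no read in any library or had 1 or 2 whole-body reads. Of the 18 identifiers beside the 4 genes, only tetur11g02930 and tetur11g03000 had enough reads to be tested. Both were called at least 2-fold higher, where 31.6% of the genes tested were. With so few whole-body reads they entered the test through their proterosoma reads, which favours higher calls.

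**Figure D4:**
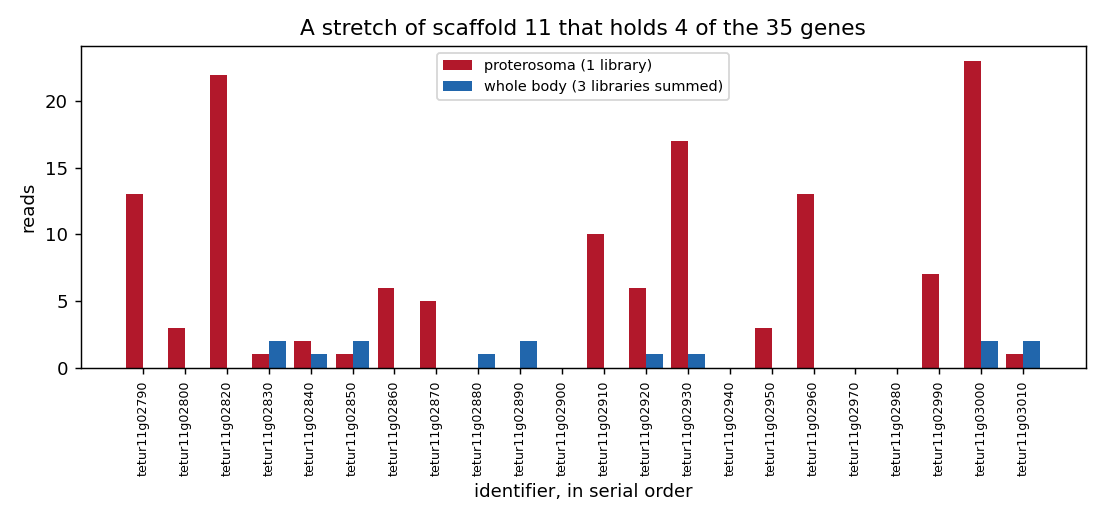
Reads per identifier along the scaffold 11 stretch, in serial order, in the proterosoma library (red, left bars) and in the 3 whole-body libraries summed (blue, right bars). The proterosoma bars reach 23 reads and the whole-body bars at most 2, and 4 identifiers have neither.

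Runs of at least 10 consecutive identifiers with at most 3 whole-body reads each numbered 35 among all identifiers. They held 557 of all 18020 identifiers, where 3858 identifiers had at most 3 whole-body reads. Of these runs, 4 held 7 of the 35 genes, 4 of them in the scaffold 11 stretch. The 35 genes meet the limit of 3 whole-body reads by rule. The like comparison is therefore with 557 of the 3858 identifiers within that limit, and it was not tested. The run around tetur17g04120, a gene with 10 proterosoma reads, spanned 30 identifiers with 82 reads in the proterosoma and 22 in whole bodies. In it, 16 identifiers were read in the proterosoma and 10 had no read in any library. The single gene with a silent identifier on each side, tetur31g00740, had 26 proterosoma reads, and its neighbours tetur31g00730 and tetur31g00760 had 0 reads in all 4 libraries.

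Some other genes of the group stood at the edge of strongly front-enriched runs. Over the whole group, however, the share of front-enriched neighbours was near that of all identifiers. On scaffold 7, tetur07g04890 had 37 proterosoma reads against 0 in each whole-body library. The next identifier, tetur07g04900, had 23 reads in the proterosoma, against 1, 1 and 0 in whole bodies. After it, tetur07g04910 had 257 reads in the proterosoma, against 0, 2 and 0 in whole bodies, and tetur07g04920 had 35, against 1, 1 and 0. The run ended with tetur07g04930, which had 20 reads in the proterosoma, against 4, 1 and 1 in whole bodies. These 5 identifiers, the gene of the group included, together had 372 proterosoma reads and 12 whole-body reads. With so few whole-body reads they entered the test through their proterosoma reads, which favours higher calls. On the other side, tetur07g04880 was well read in both, with 943 proterosoma reads against 1308, 676 and 543 whole-body reads.

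The longest unbroken run of front-enriched identifiers around a gene of the group had 7 identifiers, that gene included, from tetur14g01040 to tetur14g01130. The gene itself, at one end, had 18 proterosoma reads against 0 in each whole-body library. Next to it, tetur14g01050 had 50 proterosoma reads against 4, 1 and 3 whole-body reads, which gave a log2 fold of 4.44. With so few whole-body reads it entered the test through its proterosoma reads, so no p-value is given for it. The most abundant of the run, tetur14g01100, had 6523 proterosoma reads against 1251, 654 and 630 whole-body reads, which gave a log2 fold of 3.21 ± 0.08 (standard error; edgeR adjusted p = 1.26e-06). Levels in the run therefore differed widely, and tetur14g01130, at its other end, was only 2.11-fold higher. That all were higher in the proterosoma follows from how the run was defined and is not a result.

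The 3 genes with a front-enriched identifier on each side had low counts themselves. The gene tetur27g00960 had 12 proterosoma reads and lay beside tetur27g00970, which was 41.3-fold higher in the proterosoma on the TMM scale, at 303 CPM against 11 ± 3.38 CPM in whole bodies (SD, n = 3; edgeR adjusted p = 5.78e-06). Its other neighbour, tetur27g00950, had 25 reads in the proterosoma, against 0, 0 and 2 in whole bodies, and entered the test through its proterosoma reads. The gene tetur12g00130 had 11 proterosoma reads and lay beside tetur12g00140, at 342 CPM in the proterosoma against 79.6 ± 3.01 CPM in whole bodies (SD, n = 3), which was 6.39-fold higher on the TMM scale (edgeR adjusted p = 2.79e-06). The gene tetur08g02600 had 14 proterosoma reads, and its neighbours tetur08g02590 and tetur08g02610 were 5.72-fold and 2.44-fold higher (edgeR adjusted p = 0.00248 and 1.69e-04).

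A similar case was tetur14g03940, with 10 proterosoma reads, which preceded 3 strongly enriched identifiers. The next identifier, tetur14g03950, had 79 proterosoma reads against 3, 0 and 1 whole-body reads, and it too entered the test through its proterosoma reads. The one after it, tetur14g03960, had 7078 proterosoma reads against 162, 47 and 93 whole-body reads, an 85.4-fold difference (edgeR adjusted p = 3.63e-06). The sources at hand state neither the strand setting of the read counting nor the treatment of overlapping genes. Whether reads of abundant identifiers nearby were counted for a rare gene of the group was not tested. Among the most abundant genes of the group, tetur03g10031 lay between tetur03g10029, with 15 proterosoma reads against 23, 9 and 10 whole-body reads, and tetur03g10032, with 2 against 1, 0 and 0. At the second place from it, tetur03g10033 had 699 proterosoma reads against 89, 52 and 35 whole-body reads. The neighbours of tetur16g01080 were tetur16g01070, with 31 proterosoma reads against 76, 29 and 41 whole-body reads, and tetur16g01090, with 565 against 577, 338 and 283.

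Counts this low limited any formal comparison. Only 16 of the 35 genes, those with at least 15 reads, had enough reads to enter the edgeR test, and they did so through the library that chose them, so no test of theirs is reported. The authors' deposited table listed all 35 genes as higher in the proterosoma at an adjusted p under 0.05, where it listed 30.7% of its 15877 genes so. In the authors' deposited table their log2 folds ran from 4.76 to 10.49 with a median of 5.35, and the errors from 1.28 to 1.86. These folds are fitted against counts of 0, rest on the same reads that defined the group, and add nothing to the bounds given above.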

How the data were processed

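The authors deposited whole-number read counts per gene for 4 libraries. The submitters' processing notes name DESeq2 1.6.3, HTSeq 0.6.0 and STAR 2.5.0b. Library preparation was strand-specific, per the labels' protocols. The genome build, annotation and counting settings are not stated in the sources at hand. The authors also deposited a DESeq2-style table with, per the file headers, a mean normalised signal, p-values raw and adjusted, a test score, and log2 folds with errors. Columns were matched to samples by title, and 0 were left unused.

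The 35 genes were found by rule in the counts. CPM used library size alone. Fold bounds set proterosoma CPM against 3 reads. Neighbours are the next identifiers by serial number. They were classed with edgeR 4.0.16 (quasi-likelihood, TMM, filterByExpr, body part as the only term, 4 libraries) in R 4.3.3. The fit was tried on simulated counts that gave the proterosoma library the whole-body spread and changed few genes. That trial could check neither the spread of the proterosoma nor the scaling under widespread change. Spread came from whole bodies alone and was taken to hold for the unreplicated proterosoma (2 residual degrees of freedom). Standard errors are the log2 fold over the square root of F. DESeq2 1.42.0, other scalings, filters, windows and omitted libraries were alternatives.

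Named genes were the 5 most abundant, those with a pair of enriched or of silent neighbours, their neighbours, the longest enriched run and the 3 most abundant with 1 whole-body read; others were singled out after their values were seen. The genes and rules were chosen with earlier results of these data known.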

Additional observations from a re-analysis of the deposited data

How the results depend on the processing

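Of 66 values under alternatives, 54 stayed within 1.5 times a count or within the 95% interval of a share or bound; the exceptions follow. The number of genes meeting the rule was 104 with at least 5 proterosoma reads, 12 with at least 20, 76 with at most 1 whole-body read and 164 with at most 3, against 35; leaving out each whole-body library gave 46 to 86. The median fold bound of 11.3 was 5.61, 2.93 and 2.76 with the floor set in whole-body library 1, 2 or 3 alone, since each is shallower than the pool, and 6.30 to 8.54 with a library left out; with TMM-scaled sizes it was 16.9. Front-enriched neighbours were 16.7% next to genes with at least 20 proterosoma reads (3 of 18) and 16.9% at a minimum of 8-fold, where 10.04% of all identifiers reach that fold. Depleted neighbours were 14.7% within 5 places, and 0% (0 of 18) next to genes with at least 20 reads. Alternatives for depleted neighbours, for neighbours read only in the proterosoma, and for members outside scaffold 11 or on large scaffolds were chosen after seeing the data. No paired analysis was possible because only whole bodies carry replicate numbers. Depth limits all of these values: 10 proterosoma reads are the lowest count admitted.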
